A study of Mus musculus with 6 samples.

Results

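BAFF, TNF and death receptors are members of the TNF receptor family, the cell surface proteins through which B cells receive survival, costimulatory and death signals. The 10 genes described here were picked by symbol from the 23420 genes of a count table: the BAFF and APRIL receptors Tnfrsf13c (BAFF-R), Tnfrsf13b (TACI) and Tnfrsf17 (BCMA), the TNF receptors Tnfrsf1a (TNFR1) and Tnfrsf1b (TNFR2), the death receptor Fas (CD95), and the costimulatory receptors Tnfrsf9 (4-1BB), Tnfrsf4 (OX40), Tnfrsf18 (GITR) and Cd27. Cd40, another receptor of this family on B cells, was treated with the rest of the family. All 10 had enough counts to be tested.

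B cells were purified from mouse spleens by a magnetic isolation kit, without a sort into subsets, and RNA from 3 Ahr+/+ and 3 Ahr-/- samples was sequenced, which the study's text gives as 3 mice per genotype. The labels give C57Bl/6J as the background strain of both genotypes, and the methods list the Ahr-/- mice as a separate strain, B6.129-Ahr tm1Bra/J. Ahr encodes the aryl hydrocarbon receptor (AhR), a ligand-activated transcription factor. Every sample of both genotypes was kept for 8 h in IMDM with 5% FCS, anti-IgM at 10 µg/ml, which engages the B-cell receptor (BCR), and IL-4 at 20 ng/ml, and received the AhR ligand FICZ at 250 nM for the final 4 h. No unstimulated or FICZ-free sample was analysed here, so the comparison is of the genotypes in stimulated cells. The Ahr-/- mice carried the deletion in the whole body and not in B cells alone, and the exact age of the mice behind each library was not given in the sources used here.

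BAFF-R, TACI and BCMA bind the cytokine BAFF, and TACI and BCMA also bind APRIL. BAFF-R carries the survival signal of resting mature B cells through TRAF3 and the kinase NIK, TACI acts in antibody class switching and limits B-cell expansion, and BCMA supports plasma cells. TNFR1 and Fas carry a death domain in their cytoplasmic part and can recruit FADD and caspase-8, whereas TNFR2, 4-1BB, OX40, GITR and CD27 lack one and signal through TRAF proteins to NF-κB. Activated and germinal centre B cells are known to display Fas.

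Libraries of the samples held between 22095096 and 53648787 counts. A floor of 3 counts, which covers counting error only, corresponds to between 0.0559 and 0.136 CPM (counts relative to library size). The labels were checked on Cyp1a1, the classical AhR target gene, which fell from 5246 ± 242 to 5.36 ± 2.20 normalised counts (SD, n = 3 per genotype), and on Ahr itself, with 13175 ± 682 against 9174 ± 472. Most Ahr reads thus remained in Ahr-/- libraries, and since a count over the gene does not show whether the deleted part was read, the check rests on Cyp1a1. Cd79a, Cd79b and Ms4a1, which define B cells, had at least 9564 normalised counts in every library. Normalised counts are reads per gene brought to a common library size. They compare 1 gene between libraries, and levels of different genes are compared only after division by exon length. Differences are log2 fold changes of Ahr-/- against Ahr+/+ from edgeR's quasi-likelihood test, and a gene is said to have changed where the p-value adjusted over all 13682 tested genes was under 0.05. In such bulk samples, fewer cells of a type and less of an RNA per cell cannot be told apart.

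Of the 10 receptors, 3 were lower in Ahr-/- B cells and none was higher. Fas fell 2.38-fold, Tnfrsf9 1.59-fold and Tnfrsf13c 1.58-fold, whereas Tnfrsf13b, Tnfrsf17, Tnfrsf1a, Tnfrsf1b, Tnfrsf4, Tnfrsf18 and Cd27 did not pass the test. Of all tested genes 8.13% were lower and 9.79% higher, 17.9% together, so that the 30% of receptors that fell stood beside 8.13% of all genes. The genotypes stood apart without overlap for 4 of the 10 receptors, and for 33.5% of all tested genes. The median log2 fold change was −0.26 over the receptors and 0.00 over all tested genes. The 3 that fell encode a death receptor, a costimulatory receptor and the BAFF receptor of resting B cells, and for each of these roles the list holds other receptors that did not pass the test.

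**Figure D1:**
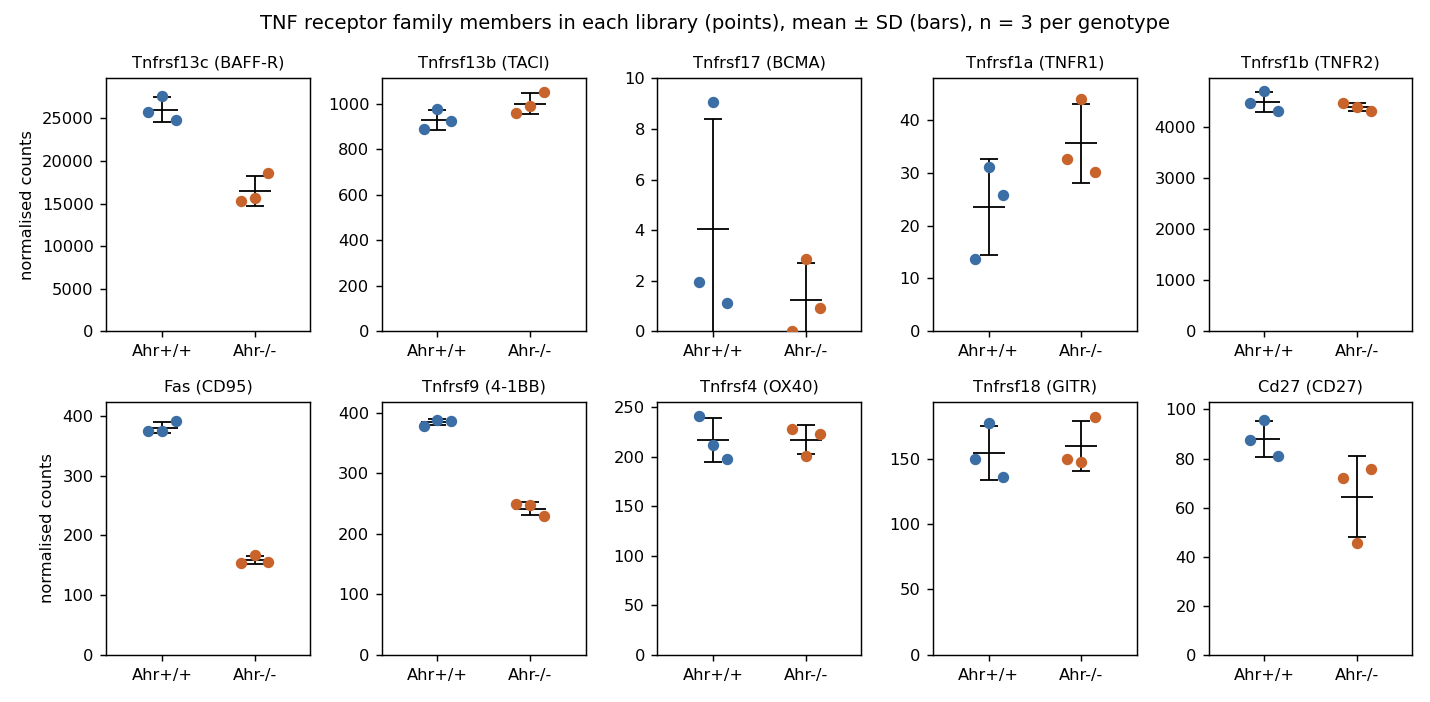
Normalised counts (vertical axes, each starting at 0) of the 10 receptors in each Ahr+/+ and Ahr-/- library, with points for libraries and bars for the mean ± SD of 3 libraries per genotype. Points of the genotypes stand apart for Tnfrsf13c, Fas, Tnfrsf9 and Cd27 and overlap for the other 6 receptors.

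Tnfrsf13c, which encodes BAFF-R, lies at chr15:82221743-82224369 on the minus strand (GRCm38, the build that mm10 names; GENCODE M21). It had 25690, 27630 and 24750 normalised counts in the Ahr+/+ samples and 15236, 15693 and 18526 in the Ahr-/- samples. The highest Ahr-/- library stood below the lowest Ahr+/+ library. The means were 26023 ± 1468 and 16485 ± 1782 (SD, n = 3 per genotype), so that Ahr-/- B cells kept 63.3% of the Ahr+/+ level. This is a log2 fold change of −0.66 (standard error 0.066, 95% interval −0.80 to −0.52, adjusted p = 1.5e-05 from edgeR). With at least 8877 counts in every library, this value rests on more counts than that of any other receptor of the list. It stayed between −0.75 and −0.60 under all alternatives tried.

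Tnfrsf13b, which encodes TACI, lies at chr11:61126755-61149372 on the plus strand. Its levels were 889, 976 and 923 normalised counts in the Ahr+/+ samples and 959, 988 and 1049 in the Ahr-/- samples. The genotypes overlapped, with means of 929 ± 43.9 and 999 ± 46.0 (SD, n = 3 per genotype). The log2 fold change of 0.11 did not pass the test (95% interval −0.01 to 0.23, adjusted p = 0.23 from edgeR), and the interval does not reach the fall of Tnfrsf13c. It was 0.07 without Ahr-/- replicate 3.

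The fall of Tnfrsf13c beside Tnfrsf13b can also be given as a ratio within each library, which needs no normalisation between libraries and restates the same counts. For each Tnfrsf13b read there were 28.9, 28.3 and 26.8 Tnfrsf13c reads in the Ahr+/+ samples, and 15.9, 15.9 and 17.65 in the Ahr-/- samples. The log2 ratio of Tnfrsf13b to Tnfrsf13c rose from −4.81 ± 0.056 without the deletion to −4.04 ± 0.088 with it (SD, n = 3 per genotype), a difference of 0.77. The genotypes did not overlap, and the two-sided exact permutation test gave p = 0.1, the smallest that 3 libraries against 3 allow, so this test could not have passed a threshold of 0.05. Leaving out each library in turn kept the difference between 0.74 and 0.82. These are reads and not molecules, since the transcripts differ in length, so the ratio compares the genotypes and not the abundance of both receptors.

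**Figure D2:**
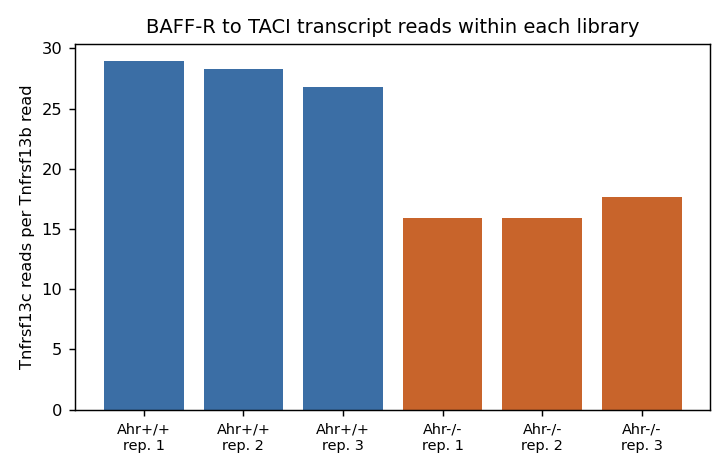
Tnfrsf13c reads per Tnfrsf13b read (vertical axis, from 0) in each of the 6 libraries, with 1 bar per library. The Ahr+/+ libraries lie between 26.8 and 28.9 and the Ahr-/- libraries between 15.9 and 17.65.

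Tnfrsf17, which encodes BCMA, lies at chr16:11313812-11320074 on the plus strand and was close to undetected. It had 2, 9 and 1 counts in the Ahr+/+ samples and 0, 4 and 1 in the Ahr-/- samples. Only 1 library of each genotype was above the floor of 3 counts, so no difference was detectable at this depth (adjusted p = 0.39 from edgeR). BCMA is known as a receptor of plasma cells. Of 6 plasma cell markers, Igj (log2 fold change −0.92) and Prdm1 (−0.64), encoding the immunoglobulin J chain and BLIMP-1, were lower in Ahr-/- B cells, Xbp1, Irf4 and Slamf7 were higher, and Sdc1 did not pass the test. The call of Igj was lost in the robust quasi-likelihood fit (adjusted p = 0.116 from edgeR). The summed markers ranged from 35886 to 39516 normalised counts in Ahr+/+ and from 39847 to 40490 in Ahr-/- libraries. The largest parts of these sums were Irf4 (means of 17265 in Ahr+/+ and 20951 in Ahr-/-), Igj (9656 and 5098) and Xbp1 (7555 and 8976). The part of these genes' cells in the Tnfrsf17 counts was not tested.

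Few or no reads were counted on the ligands of these receptors. Tnfsf13b, which encodes BAFF, had 5, 4 and 9 counts in the Ahr+/+ samples and 4, 5 and 4 in the Ahr-/- samples, with overlapping genotypes (adjusted p = 0.57 from edgeR). Tnfsf13, which encodes APRIL, was listed at 0 in all 6 libraries. It is overlapped by Tnfsfm13 on the same strand and Tnfsf13os on the opposite strand, and since the counting annotation was not given in the sources used here, how reads from this locus were assigned is unknown and its 0 gives no level of APRIL RNA. BAFF in the spleen is known to come largely from stromal and myeloid cells.

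Fas, which encodes the death receptor CD95, showed the largest change among the 3 receptors that passed the test. It lies at chr19:34290666-34327772 on the plus strand. The Ahr+/+ libraries had 375, 374 and 391 normalised counts, and the Ahr-/- libraries had 154, 166 and 156. The spread within each genotype was small against the gap between the genotypes, with means of 380 ± 9.38 and 159 ± 6.48 (SD, n = 3 per genotype), so that 41.8% of the Ahr+/+ level remained. The log2 fold change was −1.25 (standard error 0.086, 95% interval −1.44 to −1.06, adjusted p = 6.0e-07 from edgeR). It stayed between −1.29 and −1.22 under all alternatives tried. By p-value Fas ranked 118 among the 13682 tested genes, and 163 by fold change among the 1113 lower genes.

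The death ligand was low in the same libraries. Fasl had 16, 27 and 19 counts in the Ahr+/+ samples and 5, 24 and 13 in the Ahr-/- samples, and its normalised levels of 21.3 ± 5.81 and 12.5 ± 4.28 (SD, n = 3 per genotype) overlapped (adjusted p = 0.21 from edgeR). Among the adaptors that couple Fas to cell death, the genes of FADD and caspase-8 did not pass the test, with log2 fold changes of 0.12 for Fadd and 0.06 for Casp8. Cflar, which encodes cFLIP, an inhibitor of caspase-8 at the receptor, rose from 10686 ± 469 to 12838 ± 418 normalised counts (log2 fold change 0.27, adjusted p = 6.2e-04 from edgeR). Of these genes that act with or below Fas, Cflar alone passed the test.

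Tnfrsf1a and Tnfrsf1b, the receptors for TNF and lymphotoxin α, differed widely in level and not detectably between genotypes. Tnfrsf1b, which encodes TNFR2, lies at chr4:145213463-145246870 on the minus strand. It had 4473, 4693 and 4304 normalised counts in the Ahr+/+ samples and 4464, 4387 and 4301 in the Ahr-/- samples. The libraries overlapped throughout (log2 fold change −0.04, 95% interval −0.13 to 0.06, adjusted p = 0.63 from edgeR), and this is the narrowest interval of the list.

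Tnfrsf1a, which encodes the death domain receptor TNFR1, lies at chr6:125349362-125362484 on the plus strand. It had 13.6, 31.2 and 25.8 normalised counts in the Ahr+/+ samples and 32.6, 44.1 and 30.1 in the Ahr-/- samples. The genotypes overlapped, and the log2 fold change of 0.63 did not pass the test (standard error 0.30, 95% interval −0.03 to 1.29, adjusted p = 0.19 from edgeR). It was 0.34 without Ahr+/+ replicate 1 and 0.41 without Ahr-/- replicate 2. Per kilobase of exon, Tnfrsf1b had 1175 ± 51.1 and Tnfrsf1a 9.09 ± 3.48 normalised counts in Ahr+/+ B cells (SD, n = 3), and no library of Tnfrsf1a came near any library of Tnfrsf1b.

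The ligands of these receptors rose. Tnf, which encodes TNF, had 434, 392 and 387 normalised counts in the Ahr+/+ samples and 599, 542 and 470 in the Ahr-/- samples (log2 fold change 0.40, standard error 0.090, adjusted p = 0.0084 from edgeR). Lta, which encodes lymphotoxin α, had 68.0, 72.4 and 62.9 against 122, 107 and 117 normalised counts (log2 fold change 0.75, standard error 0.14, adjusted p = 0.0027 from edgeR). For both ligands every Ahr-/- library was higher than every Ahr+/+ library.

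Tnfrsf9, which encodes 4-1BB (CD137), a costimulatory receptor induced on activated lymphocytes, was the third receptor to fall. It lies at chr4:150914562-150946102 on the plus strand. The Ahr+/+ libraries had 379, 388 and 386 normalised counts, and the Ahr-/- libraries had 249, 247 and 229. The libraries of each genotype stood close together, with means of 385 ± 5.04 and 242 ± 11.1 (SD, n = 3 per genotype), so that 62.9% of the Ahr+/+ level remained. The log2 fold change was −0.67 (standard error 0.079, 95% interval −0.84 to −0.50, adjusted p = 6.4e-05 from edgeR), and it stayed between −0.70 and −0.63 under all alternatives tried. Tnfrsf9 lies on the opposite strand within the span of Camta1, with no shared exonic base, and Camta1 had a log2 fold change of −0.02 (adjusted p = 0.90 from edgeR).

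The ligand of 4-1BB fell too. Tnfsf9, which encodes 4-1BBL, had 41.8, 42.3 and 40.4 normalised counts in the Ahr+/+ samples and 22.3, 19.9 and 13.7 in the Ahr-/- samples, without overlap (log2 fold change −1.18, standard error 0.24, adjusted p = 0.0045 from edgeR). Among the 10 receptors, Tnfrsf9 is the only one that passed the test together with a ligand of its own that also fell.

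The other costimulatory receptors did not pass the test. Tnfrsf4, which encodes OX40, lies at chr4:156013843-156016612 on the plus strand and had 241, 212 and 198 normalised counts in the Ahr+/+ samples and 228, 200 and 223 in the Ahr-/- samples. The genotypes overlapped, with a log2 fold change of −0.01 (95% interval −0.24 to 0.22, adjusted p = 0.96 from edgeR) whose sign turned under several alternatives. Tnfrsf18, which encodes GITR, lies 9.6 kb away at chr4:156026164-156028895 on the same strand and had 150, 177 and 136 against 149, 147 and 181 normalised counts. Its genotypes overlapped as well, with a log2 fold change of 0.05 (95% interval −0.25 to 0.35, adjusted p = 0.86 from edgeR), which was −0.064 without Ahr-/- replicate 3 and −0.032 without Ahr+/+ replicate 3. Of the exonic bases of Tnfrsf18, 27.2% are shared with Gm16008 on the opposite strand, a gene without a row in the table, and whether strand was used in counting was not given in the sources used here.

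Cd27, which encodes the receptor that marks memory B cells in humans and many T cells, lies at chr6:125232622-125237010 on the minus strand. It had 87.4, 95.6 and 80.9 normalised counts in the Ahr+/+ samples and 72.1, 45.5 and 75.7 in the Ahr-/- samples. The genotypes did not overlap, but Ahr-/- replicate 2 was far below the others and the spread in that genotype was wide, with means of 88.0 ± 7.38 and 64.4 ± 16.5 (SD, n = 3 per genotype). This gave a log2 fold change of −0.49 (standard error 0.20, 95% interval −0.93 to −0.05, adjusted p = 0.13 from edgeR), and it passed the test only without Ahr-/- replicate 3 (−0.67, adjusted p = 0.045 from edgeR). It was −0.25 without Ahr-/- replicate 2. Cd27 overlaps Vamp1 on the opposite strand, with no shared exonic base, and Vamp1 had a log2 fold change of −0.20 (adjusted p = 0.070 from edgeR). Of the exonic bases of Cd27, 5.54% are shared with Mir8113 on the same strand, which was not among the counted genes.

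The ligands of these 3 receptors were near the floor. Tnfsf4, which encodes OX40L, had 3, 2 and 2 counts in the Ahr+/+ samples and 3, 8 and 7 in the Ahr-/- samples (adjusted p = 0.14 from edgeR). Tnfsf18, which encodes GITRL, had 1, 2 and 1 against 3, 7 and 6 counts (adjusted p = 0.061 from edgeR), and Cd70, the ligand of CD27, had 1, 0 and 1 against 0, 3 and 0 counts and was too low to be tested. None of the 3 showed a difference that passed the test at this depth.

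**Figure D3:**
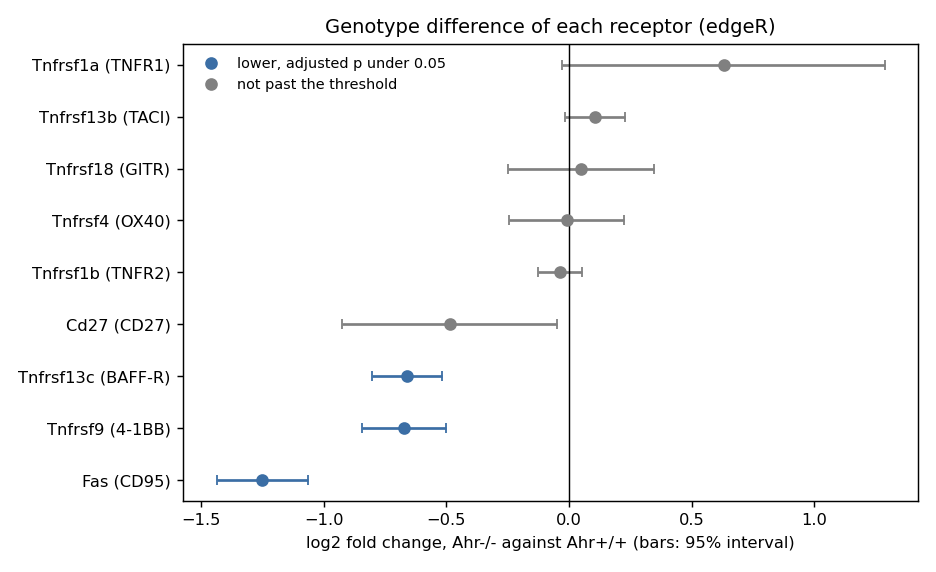
Log2 fold change of Ahr-/- against Ahr+/+ (horizontal axis) of 9 receptors with its 95% interval (bars) from edgeR, in blue for adjusted p under 0.05. Tnfrsf17 is left out because most of its libraries were at or below 3 counts. The intervals of Fas, Tnfrsf9 and Tnfrsf13c lie well below 0, that of Cd27 ends just below it, and the other 5 include 0.

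Compared per kilobase of exon, the receptors covered a wide range of levels. In Ahr+/+ B cells Tnfrsf13c led with 12694 ± 716 normalised counts per kb (SD, n = 3), followed by Tnfrsf1b with 1175 ± 51.1 and Tnfrsf13b with 327 ± 15.5. Next came Fas (184), Tnfrsf4 (160), Tnfrsf9 (141), Tnfrsf18 (101), Cd27 (37.7), Tnfrsf1a (9.09) and Tnfrsf17 (4.96). Each receptor in this order stood apart from its neighbour in all 3 libraries except Tnfrsf1a and Tnfrsf17, whose values overlapped.

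In Ahr-/- B cells Tnfrsf13c still led with 8041 ± 869 normalised counts per kb (SD, n = 3), ahead of Tnfrsf1b with 1148 ± 21.4 and Tnfrsf13b with 352 ± 16.2. Fas, at 77.1 ± 3.15, moved from place 4 to place 7, below Tnfrsf4 (160), Tnfrsf18 (105) and Tnfrsf9 (88.9). Of the summed per-kb level of the 10 receptors, Tnfrsf13c made up 85.6% in Ahr+/+ and 80.3% in Ahr-/- B cells, Tnfrsf1b 7.92% and 11.5%, and Tnfrsf13b 2.21% and 3.51%. These shares depend on the total, most of which was Tnfrsf13c. The level of Tnfrsf1b itself was 1175 per kb in Ahr+/+ and 1148 in Ahr-/- B cells.

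**Figure D4:**
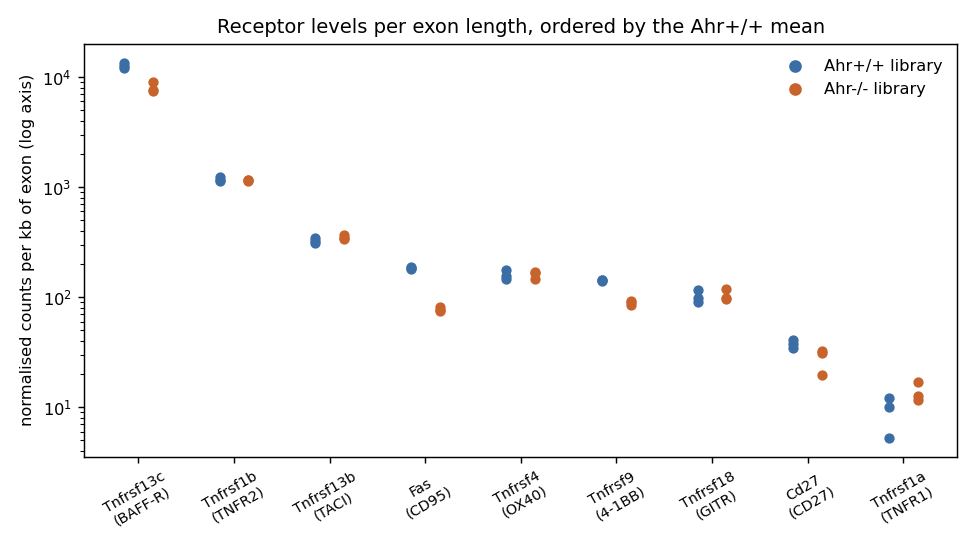
Normalised counts per kb of exon (vertical log axis) of 9 receptors in each library, ordered by the Ahr+/+ mean and coloured by genotype. Tnfrsf17 is left out because 1 library was at 0. Tnfrsf13c lies at 12694 and Tnfrsf1b at 1175 in the Ahr+/+ mean, and Fas drops below Tnfrsf4, Tnfrsf9 and Tnfrsf18 in Ahr-/- B cells.

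Of the 10 receptor genes, 4 lie on chromosome 4 and 2 on chromosome 6. Tnfrsf9 was the only one of the chromosome 4 group to pass the test, and Tnfrsf1b, Tnfrsf4 and Tnfrsf18 on the same chromosome did not. Tnfrsf8, which encodes CD30 and is not among the 10, lies 20.3 kb from Tnfrsf1b. It fell from 115 ± 26.2 to 49.0 ± 11.2 normalised counts (SD, n = 3 per genotype), beside a Tnfrsf1b that did not pass the test. Cd27 and Tnfrsf1a on chromosome 6 lie 112.4 kb apart.

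Start regions of the receptors were searched for 2 motifs after the values above were known. RefSeq (GRCm38.p6) gave 11 windows for the 10 genes, Tnfrsf9 having 2 annotated starts, each from 250 bases before to 50 after the start. The core of the dioxin response element that AhR binds with its partner ARNT, GCGTG, was found on either strand in 32.4% of 32851 such windows of all genes, and in 2 of the 11. The NF-κB consensus was found in 4.51% of all windows and in 1 of the 11. The matches are shown because Fas and Tnfrsf9 fell and Tnfrsf1b is the one other receptor with a DRE core. Each line gives 30 bases on the gene's strand, 5′ to 3′, with the motif in capitals.
Fas: gaagcggtttgtGCGTGccagggggcgggc
Tnfrsf1b: ctgtgtaaagagGCGTGtcctcagggcgcg
Tnfrsf9: cagagcagctGGGGATTTCCCaggaggccc
The Fas stretch is chr19:34290590-34290619 on the plus strand, and its core starts 57 bases before the start site. The Tnfrsf1b stretch is chr4:145246941-145246970 on the minus strand, with the core starting 88 bases before the start. The Tnfrsf9 stretch is chr4:150927946-150927975 on the plus strand, before the second annotated start, and its capitals join 2 overlapping matches, one of which also reads on the other strand. The window of Tnfrsf13c held neither motif. A match is a description of the letters and not a binding site, and a share of 2 of 11 stands beside 32.4% of all windows.

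The rest of the pathway was described by lists of other receptors, ligands and signalling proteins. Of 18 further TNF receptor family genes, 15 were tested, 1 was lower and 5 were higher (40% against 17.9% of all genes), with a median log2 fold change of 0.13. Tnfrsf8 had 92.3, 144 and 110 normalised counts in the Ahr+/+ samples and 61.8, 44.1 and 41.0 in the Ahr-/- samples (log2 fold change −1.29, standard error 0.21, adjusted p = 8.9e-04 from edgeR). Tnfrsf19 (TROY) rose from 11.4 to 32.6 and Tnfrsf26 from 150 to 235 normalised counts (log2 fold changes 1.49 and 0.64, adjusted p = 0.0027 and 8.7e-04 from edgeR). Each shares its locus with an opposite-strand gene, and reads of Tnfrsf26 may be shared with its close relatives Tnfrsf22 and Tnfrsf23. Relt rose by 0.28 on the log2 scale and Cd40, which receives CD40L from T cells, by 0.23 (1517 ± 102 to 1783 ± 102 normalised counts, adjusted p = 0.014 from edgeR). The call of Cd40 was lost without Ahr+/+ replicate 3 (adjusted p = 0.0687) and without Ahr-/- replicate 2 (adjusted p = 0.0768). Tnfrsf11a (RANK) rested on 4, 7 and 4 against 11, 20 and 11 counts, and its call (adjusted p = 0.038) was lost under 6 of 13 alternatives, with adjusted p-values between 0.0564 with the replicate block and 0.141 in DESeq2. Among these were the fits without Ahr+/+ replicate 1 or 3 and without Ahr-/- replicate 1 or 2 (adjusted p = 0.124, 0.113, 0.0949 and 0.122).

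Of 18 TNF ligand family genes, 15 were tested, 2 were lower and 2 higher (26.7% against 17.9% of all genes), with a median log2 fold change of 0.30. Tnf and Lta rose and Tnfsf9 fell, as described above. Tnfsf14, which encodes LIGHT, fell from 80.2 ± 26.1 to 37.6 ± 6.57 normalised counts (SD, n = 3 per genotype; log2 fold change −1.07, adjusted p = 0.012 from edgeR). Its call was lost without Ahr+/+ replicate 2 (adjusted p = 0.0623) and without Ahr+/+ replicate 3 (adjusted p = 0.0503).

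Of 30 genes that carry signals below these receptors, 5 were lower and 6 higher (36.7% against 17.9% of all genes), with a median log2 fold change of −0.01 and 7 calls without Ahr+/+ replicate 3. Tnfaip3, which encodes A20, the deubiquitinase that restrains NF-κB, had 5520, 5180 and 5505 normalised counts in the Ahr+/+ samples and 7155, 7530 and 7839 in the Ahr-/- samples (log2 fold change 0.48, standard error 0.044, adjusted p = 7.8e-06 from edgeR). The TRAF adaptors Traf1 (0.28) and Traf2 (0.15), their binding partner Tank (0.39), Cflar (0.27) and Map3k14, which encodes NIK (0.18), rose as well. Ripk3 (−0.32), the kinase of necroptosis, Traf4 (−0.25), Fam105b (−0.24), the table's older symbol for the deubiquitinase OTULIN, the deubiquitinase Cyld (−0.18) and Traf3 (−0.12), which holds NIK in check, were lower. The call of Map3k14 was lost without Ahr+/+ replicate 3 (adjusted p = 0.0587) and without Ahr-/- replicate 2 (adjusted p = 0.0521), and so was that of Traf2 (adjusted p = 0.0913 and 0.0864). Cyld lost its call without Ahr+/+ replicate 3 (adjusted p = 0.0601). The call of Traf3 (adjusted p = 0.046) was lost under 7 of 13 alternatives, 5 of them the fits without any 1 library other than Ahr-/- replicate 3 (adjusted p from 0.0667 to 0.155).

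**Figure D5:**
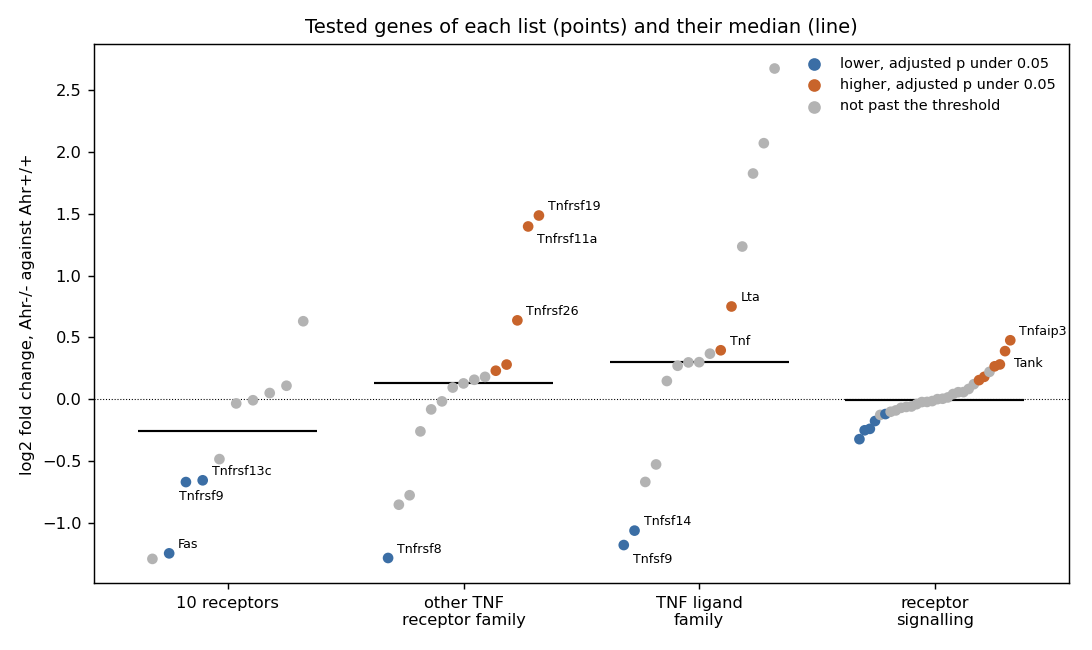
Log2 fold change of Ahr-/- against Ahr+/+ (vertical axis) of every tested gene in the list of 10 receptors and in the 3 pathway lists, 1 point per gene in order of its value, with a line at the list's median. Coloured points passed the test in edgeR. The coloured receptors of the first list all lie below 0, and grey points far from 0 are genes with few counts.

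Other cells that express these receptors could be in the samples, and their markers were counted in the same libraries. T cells carry Fas, Tnfrsf9, Tnfrsf4, Tnfrsf18 and Cd27. Of 9 T cell markers tested, 2 were lower and none higher: Cd3e fell from 33.9 to 14.1 normalised counts and Cd28 from 78.5 to 43.5, and the other 7 did not pass the test, a share of 22.2% called beside 17.9% of all genes. Of the 9, 6 had log2 fold changes below 0: Cd3e, Cd28, Cd3g (−0.84), Cd247 (−0.41), Cd3d (−0.18) and Cd8a (−0.05). The other 3, Cd2 (0.35), Cd4 (0.35) and Lck (0.07), were above 0 and did not pass the test either. The summed T cell markers, most of which was Lck, ranged from 6161 to 6614 normalised counts in Ahr+/+ and from 6184 to 7094 in Ahr-/- libraries. Of 6 regulatory T cell markers, Ctla4 (log2 fold change −1.33) and Lrrc32 (−0.68) were lower, with sums from 10236 to 11546 and from 10432 to 11545. Il2ra alone made up 9460 of the Ahr+/+ and 9958 of the Ahr-/- mean. Of the 6 markers 5 had log2 fold changes below 0, and those other than Ctla4 and Lrrc32 did not pass the test. Foxp3 had 16.9 normalised counts in Ahr+/+ and 16.1 in Ahr-/- libraries (log2 fold change −0.15, adjusted p = 0.81 from edgeR). Lrrc32 had 1284 and 801. Regulatory T cells are known to carry Tnfrsf4 and Tnfrsf18 at high levels, and neither receptor passed the test. Which cells the reads of these receptors came from was not tested, nor was the part of T cell RNA in the lower Fas and Tnfrsf9.

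B cell markers moved the other way from Tnfrsf13c. Of 10, 6 were higher and 1, Ebf1, was lower, and their sum rose from a range of 118244 to 127132 normalised counts in Ahr+/+ to one of 139336 to 147975 in Ahr-/- libraries. The lower Tnfrsf13c thus stood beside higher Cd79a, Cd79b, Ms4a1 and Pax5. Of 10 plasmacytoid dendritic cell markers 8 were higher, led by Siglech (log2 fold change 2.23) and Klk1 (2.19), and 1, Tcf4, was lower (−0.68). Their sums overlapped, from 12338 to 13476 and from 13391 to 14709, and Tcf4 alone accounted for 7537 normalised counts of the Ahr+/+ and 4680 of the Ahr-/- mean. Of 8 conventional dendritic cell markers 4 were higher and 1 lower, led by Cd209a (2.52) and Clec9a (1.86), with sums from 820 to 937 and from 882 to 1073. Of 11 macrophage and monocyte markers Emr1 was lower (−3.60) and Cd14 higher (1.64), with sums from 1264 to 1663 and from 737 to 1295. Emr1 alone went from a mean of 650 to 54.1 normalised counts, and the median log2 fold change of the list was 0.49, with 7 of 11 above 0. Of 7 NK cell markers Ncr1 (0.98) and Klrb1c (0.92) were higher, with sums from 328 to 446 and from 408 to 648, and of 6 neutrophil and mast cell markers Cpa3 was higher, with sums from 80.6 to 153 and from 90.3 to 273. The calls of Ebf1, Cr2, Cd14, Ncr1 and Klrb1c were each lost without at least 4 of the single libraries in turn, Ncr1 most without Ahr-/- replicate 2 (adjusted p = 0.334). No marker was at 0 in all libraries of a genotype, and the part of these cells in the receptor differences was not tested.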

How the data were processed

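RNA was measured by stranded mRNA sequencing in 3 Ahr+/+ and 3 Ahr-/- samples. The authors deposited raw counts of reads per gene, and the submitters' processing notes name TopHat2, HTSeq, DESeq and mm10, without a role for each. The counting annotation and strand setting were not given in the sources used here. Of 3 deposited tables, the table of normalised counts and that of the authors' own comparison (means, fold changes and p-values) were not used. Groups came from the genotype in the labels.

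Genes whose counts summed to 10 or more were compared with edgeR 4.0.16 (R 4.3.3) by a quasi-likelihood test after TMM normalisation, with a prior count of 0.125 and Benjamini-Hochberg adjustment over all 13682 tested genes. No covariate was used. Standard errors are the absolute log2 fold change divided by the square root of F. Normalised counts were divided by the TMM-scaled library size relative to the mean. For single values the exact permutation test was two-sided, and the smallest p that 3 against 3 can give is 0.1. On simulated counts, edgeR recovered 100 of 100 genes changed by 1 on the log2 scale and 100 of 100 changed by 2. It made 8 false calls among 13682 genes. Recovery of changes under 1, of genes with few counts and of genes with a wide spread between libraries was not tested. Alternatives were other size factors, library size alone, other filters, DESeq2 1.42.0, a robust fit, a replicate block, a prior count of 2, a threshold of 0.01, and each library left out. Positions and exon lengths came from GENCODE M21, and start regions from RefSeq.

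The receptors and lists were chosen with earlier results of these data known. Text names were fixed by rule: all receptors, their ligands and Cd40, the called genes of each pathway list (the 8 largest where more than 8 passed), and the 2 most changed markers per list. Cyld, Traf2, Traf3, Fadd, Casp8, the neighbouring and overlapping genes and further markers were named after their values were seen.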

Additional observations from a re-analysis of the deposited data

How the results depend on the processing

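The calls of Fas, Tnfrsf9 and Tnfrsf13c held under all alternatives tried. Across them 3 or 4 receptors passed the test, 4 to 6 other receptors, 3 to 5 ligands and 7 to 11 signalling genes. At an adjusted p under 0.01, 1473 of all genes and 7 signalling genes passed. With each library left out in turn, signalling genes numbered 7 to 11, Tnfrsf4 had log2 fold changes from −0.070 to 0.073, Tnfrsf18 from −0.064 to 0.16, Cd27 from −0.67 to −0.25, Tnfrsf1a from 0.34 to 0.90, Tnfrsf13b from 0.07 to 0.14 and Tnfrsf1b from −0.066 to −0.0030. The sign of Tnfrsf4 also turned with library size alone (0.016) and with the replicate block (0.0054), and the cause was not tested. Library size alone moved the share of lower calls over all genes from 45.4% to 36.2%, and their median log2 fold change from 0.00 to 0.03. The labels do not say that equal replicate numbers pair the samples, so no pairing was used. In their deviations from the genotype mean, libraries with the same number had correlations of −0.03, 0.12 and −0.04. Those with different numbers ranged from −0.18 to 0.18, and with 3 libraries per genotype these values cannot show whether samples were paired. With the replicate block 2303 genes passed against 2453, and 3 receptors as before. Of the 21 called pathway genes 14 kept their call throughout and 0 changed direction. Depth limits Tnfrsf17 and the BAFF, OX40L, GITRL and CD70 transcripts, which had at most 9 counts in any library. DESeq2 gave no adjusted p for Tnfrsf17.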
